A study of Mus musculus with 3 samples.

Results

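The 10 genes Egr1, Egr2, Egr3, Egr4, Nr4a1, Nr4a2, Nr4a3, Npas4, Arc and Ier2 were followed across the cell classes of the mouse retina. They are 10 of the 24071 gene rows measured. They were picked by name and by no cut on a measured value, but with earlier results of these data known. The data are 3 single-cell 3′ tag libraries of retinas at postnatal day 26, 1 for each group: Tspan12 knockout mice given F4L5.13 (KO + F4L5.13), Tspan12 knockout mice (KO) and wild-type mice (WT). F4L5.13, an antibody that engages the receptors Frizzled4 and LRP5, was injected into the peritoneum of the treated knockouts at 10 mg/kg on days 6, 9 and 12 after birth. Later injections, 3 days apart, were of 4 mg/kg. Tspan12 is a tetraspanin that assists Norrin signalling through Frizzled4 in the retinal vasculature. The labels give the same strain, Tspan12tm1.2Hjug, for every group, the WT included, and how many animals or retinas went into a library is not stated in them. Retinas were digested with papain at 37 °C for 15 min. Beads against CD73 and Annexin V were used to take out photoreceptors and dying cells, and the suspensions had 60% to 80% viability. Rods still made up 3500 of 8215 (KO + F4L5.13), 3784 of 9357 (KO) and 212 of 5785 (WT) cells kept below.

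Each of the 10 is an immediate-early gene, transcribed within minutes of a stimulus from a promoter that needs no newly made protein. Calcium entry in firing neurons, growth factors and stress act on the factors CREB and SRF, which drive these promoters, so the RNA of the group is read as a record of recent stimulation. Tissue dissociation induces many of the same genes. Egr1 to Egr4 encode zinc-finger transcription factors, Nr4a1 to Nr4a3 orphan nuclear receptors, Npas4 a neuronal transcription factor that answers to calcium, Arc a cytoskeleton-associated protein of the synapse, and Ier2 a small nuclear protein.

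In GRCm38, the build of the submitters' notes (mm10), Egr2 lies at chr10:67535475-67542188 on the plus strand, Egr3 at chr14:70077203-70082614 plus, Egr4 at chr6:85511121-85513589 minus, Nr4a1 at chr15:101254269-101274795 plus, Nr4a2 at chr2:57106830-57124003 minus and Nr4a3 at chr4:48045153-48086447 plus. Npas4 lies at chr19:4984355-4990316 minus and Arc at chr15:74669083-74672570 minus. RefSeq promoter windows (GRCm38.p6) were matched for 6 of the 10: Egr2, Egr4, Nr4a1, Nr4a2, Nr4a3 and Npas4. The 250 bases before the start are shown for 4 of them, a pair from each family, in which Egr4 and Nr4a2 are near 0 in Müller cells and Egr2 and Nr4a1 are not, none overlapping an annotated exon of the 10 genes: Egr2 (chr10:67537619-67537868 plus, 1 of 5 listed starts), Egr4 (chr6:85513590-85513839 minus), Nr4a1 (chr15:101266596-101266845 plus) and Nr4a2 (chr2:57124004-57124253 minus). The Egr2 and Nr4a1 windows lie inside the annotated span of their genes, before internal starts. Capitals mark TGACG, the core site of the cAMP response element that CREB binds, on either strand (CGTCA when read on the other), and in Egr2 also a CArG box, the element that SRF binds.
Egr2: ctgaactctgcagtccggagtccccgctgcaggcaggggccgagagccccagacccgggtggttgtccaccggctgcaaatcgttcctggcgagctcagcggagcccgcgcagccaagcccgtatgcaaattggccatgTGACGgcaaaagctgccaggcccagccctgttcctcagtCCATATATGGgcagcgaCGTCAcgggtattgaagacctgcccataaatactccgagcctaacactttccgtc
Egr4: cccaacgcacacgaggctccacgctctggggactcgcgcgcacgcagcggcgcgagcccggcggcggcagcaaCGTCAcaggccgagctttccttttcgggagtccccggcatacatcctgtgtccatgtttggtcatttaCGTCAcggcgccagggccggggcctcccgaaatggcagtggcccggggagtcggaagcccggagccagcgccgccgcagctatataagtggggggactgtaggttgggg
Nr4a1: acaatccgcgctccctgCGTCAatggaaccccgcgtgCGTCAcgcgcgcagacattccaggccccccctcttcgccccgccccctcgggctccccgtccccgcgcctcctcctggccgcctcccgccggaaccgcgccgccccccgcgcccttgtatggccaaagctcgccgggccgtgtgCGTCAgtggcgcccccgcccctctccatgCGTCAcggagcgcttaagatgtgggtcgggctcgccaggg
Nr4a2: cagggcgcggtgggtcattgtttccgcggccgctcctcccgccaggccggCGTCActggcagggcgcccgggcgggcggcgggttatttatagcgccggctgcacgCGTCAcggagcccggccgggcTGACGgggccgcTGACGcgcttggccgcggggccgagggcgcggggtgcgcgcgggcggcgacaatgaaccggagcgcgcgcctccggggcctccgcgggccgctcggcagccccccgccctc

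These windows hold 2 core sites for Egr2, 2 for Egr4, 4 for Nr4a1 and 4 for Nr4a2, with no overlap between a core site and the CArG box. Of the other 4 Egr2 windows, 2 that overlap the one shown hold 2 as well and 2 hold none. The unprinted windows of Nr4a3 and Npas4 hold 4 and 2. Of all 32851 windows of the same length in the table, 17.8% hold at least 1 TGACG and 3.90% hold at least 2. The CArG box is found in 1.47% of all windows and, among these 6 genes, in Egr2. The whole palindrome TGACGTCA, which would count as 2 overlapping core sites, is found in 1.55% of all windows and in none of the 6 genes' windows. GCGNGGGCG, the sequence that the Egr factors themselves bind, is in the windows of Nr4a1 and Nr4a2 and in 4.70% of all windows. A match of letters is a description of the window and no measurement of binding.

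After filtering, the libraries held 8215 (KO + F4L5.13), 9357 (KO) and 5785 (WT) cells, with a median of 7573, 6831 and 14231 reads per kept cell. The values are reads that were apparently not collapsed to molecules, so each was divided by 3.20, 2.87 or 2.77 to give molecule equivalents, on which every interval rests. Pairs of libraries shared 12 to 22 kept barcodes. Cells were clustered and classes were named from marker genes (Müller-like, bipolar-like and so on, written without "-like" below). Ier2 was the only one of the 10 among the variable genes that the clustering used. Levels are reads per 1e6 reads (CPM) of all cells of a class in a library, with 95% Poisson intervals; ratios have exact conditional binomial 95% intervals. Both cover counting error only: with 1 library per group there is no replicate and no test between groups, and differences between animals, dissociations and libraries cannot be told apart from those between groups. A difference is called when the ratio is at least 2 in either direction, the bound nearest 1 lies beyond 1.5, and the higher library has at least 30 molecule equivalents, in classes of at least 50 cells in both libraries. Tspan12 itself had 14.9, 17.3 and 27.5 CPM over all cells in the KO + F4L5.13, KO and WT libraries. The labels do not place the deletion relative to the 3′ tags, so this checks no genotype. The 10 genes together took 0.163%, 0.164% and 0.163% of all reads, a sum that hides opposite patterns in the classes.

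**Figure D1:**
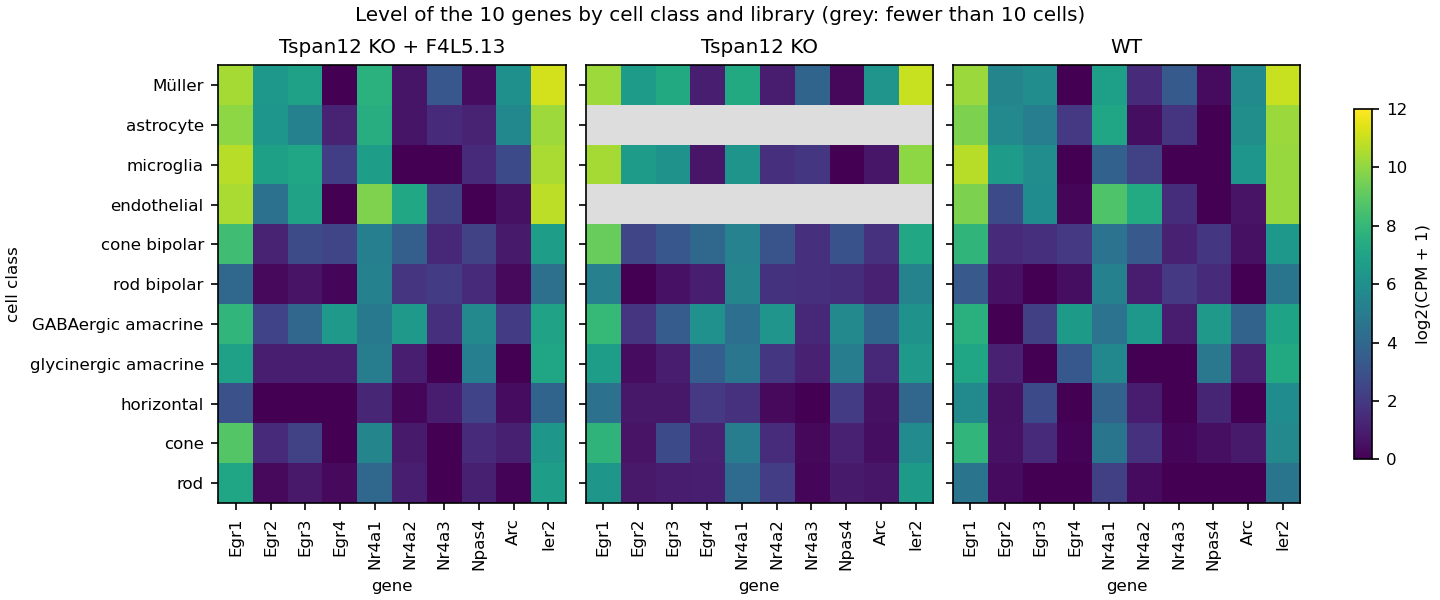
Level of each of the 10 genes (columns, log2 of CPM plus 1) in each cell class (rows) in the KO + F4L5.13, KO and WT libraries (panels, left to right); grey marks classes of fewer than 10 cells. Among the rows drawn, which leave out mural and ganglion cells, Egr1 and Ier2 are highest in the glial, microglial and endothelial rows. Egr4 is highest in the GABAergic amacrine row and Npas4 in both amacrine rows. Nr4a2 is highest in the GABAergic amacrine row and, where drawn, the endothelial row.

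The plot of levels by class set most of the genes of Müller cells apart from those of amacrine cells. Egr1, Egr2, Egr3, Nr4a1, Arc and Ier2 were high in Müller cells, the radial glia that span the retina. Egr4, Npas4 and Nr4a2 were near 0 there: in KO Müller cells they had 1.04, 0.197 and 0.961 CPM, and all 3 were below 2 CPM in the other two libraries too. In amacrine cells, interneurons that mostly inhibit, Egr4 had 57.7 CPM in the KO + F4L5.13 library, 48.1 in KO and 53.5 in WT, and the 3 intervals overlapped. Npas4 had 44.3, 42.0 and 60.2 CPM and Nr4a2 56.0, 50.6 and 45.4 CPM in the same order of libraries. These amacrine levels came from 138, 1209 and 117 cells.

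Within the amacrine cells the 3 genes were not in the same subsets. Egr4 was 87.5 (KO + F4L5.13), 66.1 (KO) and 91.1 (WT) CPM in GABAergic amacrine cells, against 1.03, 11.04 and 9.004 CPM in glycinergic ones. Nr4a2 was at 84.8, 74.6 and 83.6 CPM in GABAergic cells, against 1.03, 2.76 and 0 CPM in glycinergic cells. In KO retinas most of that Nr4a2 lay in cluster 34, led by Cartpt, at 383 CPM (52 cells), and in cluster 17, led by Cbln2 and Tac1, at 106 CPM (297 cells). There cluster 20 had 3.53 CPM (224 cells). In the KO + F4L5.13 library cluster 34 had 441 CPM (11 cells) and cluster 17 had 121 CPM (21 cells). In WT cluster 17 had 6.31 CPM (12 cells) and cluster 20 had 0 CPM (26 cells). Cluster 34 held 9 WT cells, too few for a level. Npas4 was present in both subsets: 49.2, 48.9 and 88.3 CPM in GABAergic and 35.04, 32.6 and 27.01 CPM in glycinergic cells. The KO + F4L5.13 and WT libraries had 73 and 49 GABAergic cells, and the 5 highest cells held 66.0% and 64.9% of their Egr4 reads.

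Egr1 was highest in microglia in every library, at 1697 (KO + F4L5.13), 1329 (KO) and 1666 (WT) CPM, with intervals that overlapped those of the next class in the KO + F4L5.13 and KO libraries but not in WT. Müller cells followed within the first 3 places, and neurons came lower. Rod bipolar and horizontal cells were among the lowest 3 of the 11 classes with a level, at 15.4, 36.9 and 9.18 CPM in rod bipolar cells and 6.76, 22.3 and 51.1 CPM in horizontal cells. Ier2 was highest in Müller cells in every library. Nr4a1, which endothelial cells are known to induce on angiogenic stimulation, was at 823 CPM in 38 KO + F4L5.13 endothelial cells and at 418 CPM in 112 WT endothelial cells, above every other class of at least 10 cells in its library. The KO library had 2 endothelial cells, too few for a level; its highest Nr4a1 and Nr4a2 levels, 406 and 296 CPM, were in 12 mural cells. Nr4a2 was at 146 and 163 CPM in the KO + F4L5.13 and WT endothelial cells, with overlapping intervals. Egr3 had 119 and 56.8 CPM there and Egr2 21.7 and 5.40 CPM. With under 50 cells in the KO + F4L5.13 library these pairs were not put through the size rule. Most endothelial cells lay in cluster 30 (30 KO + F4L5.13 and 82 WT cells), which also carried 11 of the 12 mural markers. In the WT cells of cluster 38 (30 cells), which carried 2 of them, Nr4a1 was at 399 and Nr4a2 at 144 CPM. The part of mural RNA in these levels was not tested.

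In Müller cells (1238 KO + F4L5.13, 1409 KO and 1686 WT), 7 of the 10 genes had enough reads to be compared in the KO with the WT, and 2 were called higher, Egr3 and Egr2. None was called lower. Of all 14128 genes compared there, 2.81% were called higher and 2.09% lower. Egr3 had 116 (KO + F4L5.13), 158 (KO) and 58.6 (WT) CPM, with 3 intervals that did not overlap, and its ratio of KO to WT was 2.69 (95% interval 2.48 to 2.92). Egr2 had 84.6, 95.0 and 42.7 CPM and a KO to WT ratio of 2.23 (2.02 to 2.46). Egr2 is known from the hindbrain and myelinating Schwann cells, and Egr3 from muscle spindles and lymphocytes.

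Arc, Nr4a1 and Nr4a3 were above WT in the KO Müller cells by less than the size rule asks. Arc was at 64.0 (KO + F4L5.13), 76.4 (KO) and 50.4 (WT) CPM, a KO to WT ratio of 1.51 (1.38 to 1.67). Nr4a1 was at 200 (KO + F4L5.13), 154 (KO) and 108 (WT) CPM, highest in the treated library. Nr4a3 was at 8.44, 13.7 and 9.49 CPM. Ier2 was at 2332, 2052 and 2050 CPM and Egr1 at 1349, 1212 and 1161 CPM: the most abundant pair differed least, with KO to WT ratios of 1.00 (0.985 to 1.02) for Ier2 and 1.04 (1.02 to 1.07) for Egr1.

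**Figure D2:**
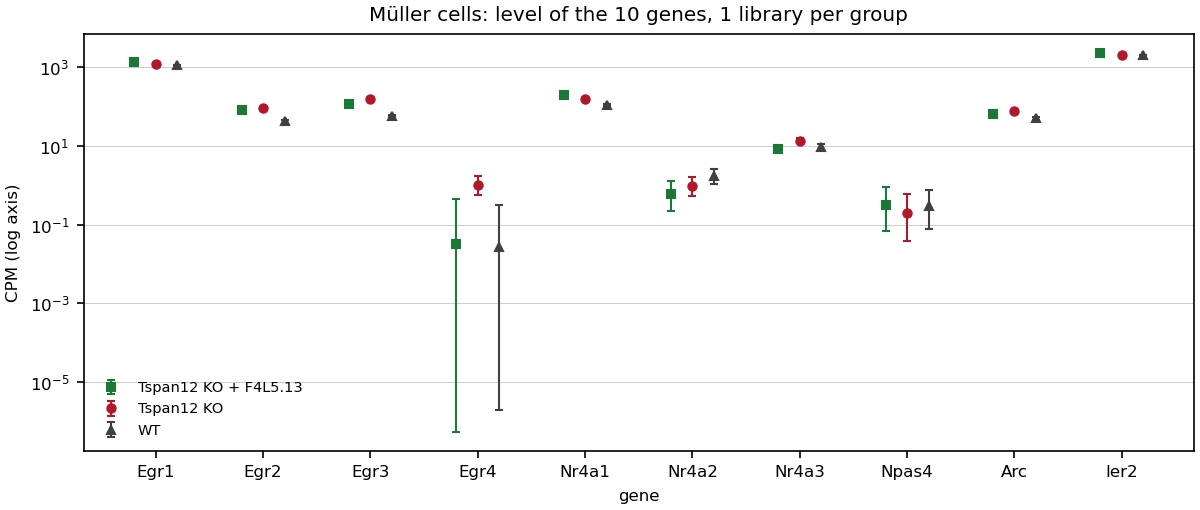
Level of each of the 10 genes in Müller cells (CPM, log axis) in the KO + F4L5.13 (squares), KO (circles) and WT (triangles) libraries; bars are 95% Poisson intervals of 1 library each. Egr2 and Egr3 stand lowest in WT, at 42.7 and 58.6 CPM, while the 3 points of Egr1 and of Ier2 nearly coincide.

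Set against the untreated KO, no gene passed the rule in KO + F4L5.13 Müller cells in either direction, where 1.42% of 13756 genes were called higher and 1.76% lower. Egr3 had a ratio of KO + F4L5.13 to KO of 0.733 (0.682 to 0.788), Egr2 of 0.890 (0.816 to 0.971), Arc of 0.838 (0.758 to 0.925) and Nr4a3 of 0.618 (0.472 to 0.803). Nr4a1 went the other way, at 1.30 (1.22 to 1.38). Set against WT, none passed either, with 0.752% of 13696 genes called higher and 0.292% lower, but 3 lay just under 2: Egr2 at 1.98 (1.78 to 2.21), Egr3 at 1.97 (1.80 to 2.16) and Nr4a1 at 1.85 (1.73 to 1.98). These comparisons share libraries, so the values are given side by side and no likeness between them is drawn.

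The KO Müller cells lay mostly in another cluster than those of the other libraries. Cluster 2, led by Hes5, held 610 of the 1238 KO + F4L5.13, 37 of the 1409 KO and 1257 of the 1686 WT cells, and cluster 5, led by Adm and Ndufa4l2, held 108, 777 and 34. Cluster 4 was the most evenly shared (339, 356 and 332 cells), and in it Egr3 was at 92.2 (KO + F4L5.13), 124 (KO) and 50.1 (WT) CPM and Egr2 at 75.5, 91.7 and 49.0 CPM. There the KO to WT ratio of Egr3 was 2.47 and that of Egr2 was 1.87, under the rule. Egr3 was higher in the KO than in WT in 4 of 4 Müller clusters with at least 10 cells in both, by 1.64 to 2.48, and Egr2 in 3 of 4. The exception for Egr2 was cluster 16, at 82.9 CPM in KO and 88.6 CPM in WT. That cluster also carried 9 of the 12 cone markers, had a median of 49100 reads per cell, and had Arc and Egr2 among its 10 leading genes. The summed level of the 12 cone markers also differed between the Müller cells of the libraries, at 2256, 2970 and 1399 CPM, and that of 12 rod markers was 11966, 10984 and 12498 CPM (all 12 of each list with reads). That of 8 erythrocyte markers was 560.7, 8.75 and 322.9 CPM, with reads of 7, 6 and 6 of them. The part of carried-over photoreceptor or blood RNA in these ratios was not tested.

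Bipolar cells carry signals from photoreceptors to the inner retina. Over all bipolar cells (2280 KO + F4L5.13, 1803 KO and 2718 WT), 8 of the 10 genes could be compared in the KO with the WT, and 4 were called higher: Egr1, Egr3, Egr4 and Npas4. Of 14043 genes compared there, 1.82% were called higher. In cone bipolar cells alone (1567, 1216 and 2025 cells), the called genes were these 4 and Egr2, against 1.77% of 13536 genes.

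Egr1 was at 322 (KO + F4L5.13), 592 (KO) and 231 (WT) CPM in cone bipolar cells, with intervals that did not overlap, and its KO to WT ratio was 2.57 (2.44 to 2.69). Egr4 was at 4.77, 15.8 and 3.04 CPM, highest in the KO, with a KO to WT ratio of 5.21 (3.54 to 7.85). Egr3 was at 5.72, 8.57 and 2.15 CPM and its ratio was 3.99 (2.47 to 6.63). Npas4, which in neurons controls the balance of excitation and inhibition, was at 4.22, 7.07 and 2.78 CPM with a ratio of 2.54 (1.60 to 4.08). Egr2 was at 1.23, 4.62 and 1.71 CPM with a ratio of 2.70 (1.51 to 4.98), on 36, 98 and 54 reads. All 5 were highest in the KO library, as were Nr4a1, Nr4a3, Arc and Ier2. The Egr2 call rests on few reads and was lost under 6 of 11 alternatives, with ratios of 1.71 to 4.00. The calls of Egr3, Egr4 and Npas4 were lost after thinning to 3000 reads per cell, and that of Npas4 also with clusters weighted equally, at 1.79. Over all bipolar cells the Npas4 call was lost under 5 of 12 alternatives.

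The other members differed less between KO and WT in cone bipolar cells. Ier2 was at 101 (KO + F4L5.13), 146 (KO) and 84.2 (WT) CPM, a ratio of 1.74 (1.59 to 1.90), and Nr4a1 at 34.97, 38.8 and 22.8 CPM, a ratio of 1.70 (1.43 to 2.02). Nr4a2 was at 11.3, 7.72 and 9.33 CPM, lowest in the KO. Arc, at 0.851, 2.31 and 0.474 CPM, and Nr4a3, at 1.57, 2.07 and 1.17 CPM, had too few reads to be compared.

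**Figure D3:**
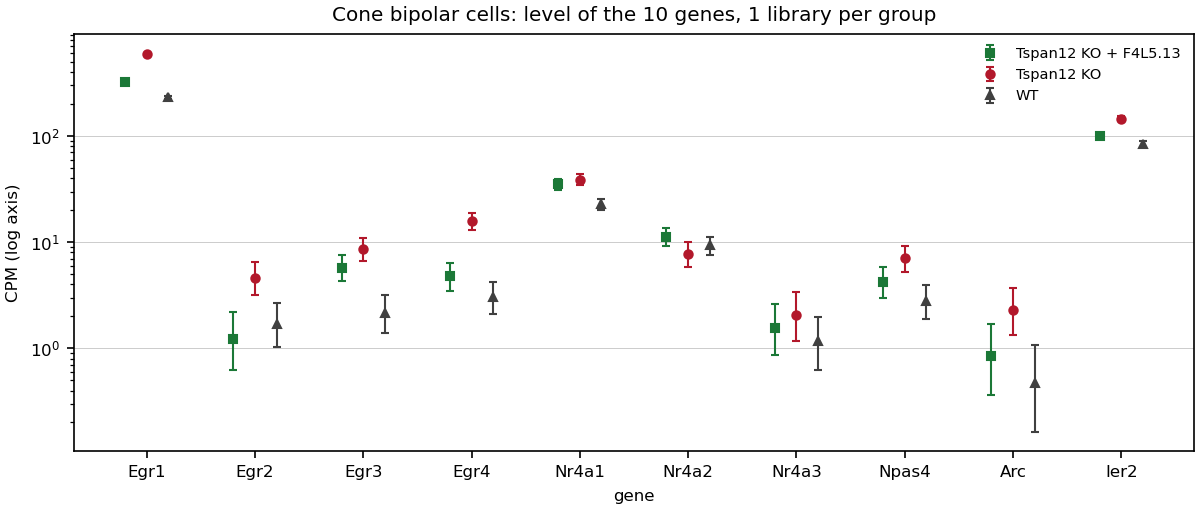
Level of each of the 10 genes in cone bipolar cells (CPM, log axis) in the KO + F4L5.13 (squares), KO (circles) and WT (triangles) libraries; bars are 95% Poisson intervals of 1 library each. The KO point is the highest for every gene but Nr4a2, with Egr1 at 592 CPM, and the lowest for Nr4a2 (7.72 CPM).

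In cone bipolar cells of the KO + F4L5.13 library set against the KO, 2 of 8 genes compared were called lower, Egr2 at 0.266 (0.122 to 0.534) and Egr4 at 0.301 (0.208 to 0.430), and none higher; 1.94% of 13110 genes were called lower and 1.08% higher. Over all bipolar cells the same pair was called, against 2.07% of 13652 genes. The Egr2 call was lost under 3 of 11 alternatives in cone bipolar cells, with ratios of 0.154 to 0.285, and under 6 of 12 over all bipolar cells. The Egr4 call was lost after thinning. Egr1 lay just outside the rule at 0.543 (0.518 to 0.570), and Ier2 at 0.688 (0.630 to 0.752). Nr4a2 was the 1 gene of the 8 with a ratio above 1, at 1.46 (1.05 to 2.05). Set against WT, Egr3 was called higher, at 2.66 (1.62 to 4.49), where 0.207% of 13501 genes were; it was also called over all bipolar cells, where 0.171% of 14012 genes were. With candidate doublets kept the Egr3 ratio in cone bipolar cells was 1.98, and the call was lost. Egr1 stood at 1.39 (1.32 to 1.47) times WT and Egr4 at 1.57 (0.983 to 2.53) times WT.

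The Egr1 difference was spread over the cone bipolar clusters. Of 11 cone bipolar clusters with at least 10 cells in each library, Egr1 was higher in the KO than in WT in 11, by 1.76 to 11.2 times, and lower in KO + F4L5.13 than in KO in 11, at 0.197 to 0.726 of the KO level. In cluster 15, where it was highest, Egr1 was at 611 (KO + F4L5.13), 1199 (KO) and 458 (WT) CPM. In cluster 12, led by Igfn1, it was at 29.4, 149 and 20.1 CPM. Egr4 was higher in the KO than in WT in 10 of 11 clusters, the exception being cluster 10, at 3.02 CPM in KO and 3.46 CPM in WT. Npas4 was higher in the KO in 9 of 11 clusters and Egr3 in 8. Egr2 was higher in 5 and lower in 5, so its summed difference was not shared by the clusters. Clusters of 1 library are not replicates, and these counts describe how the difference is spread.

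**Figure D4:**
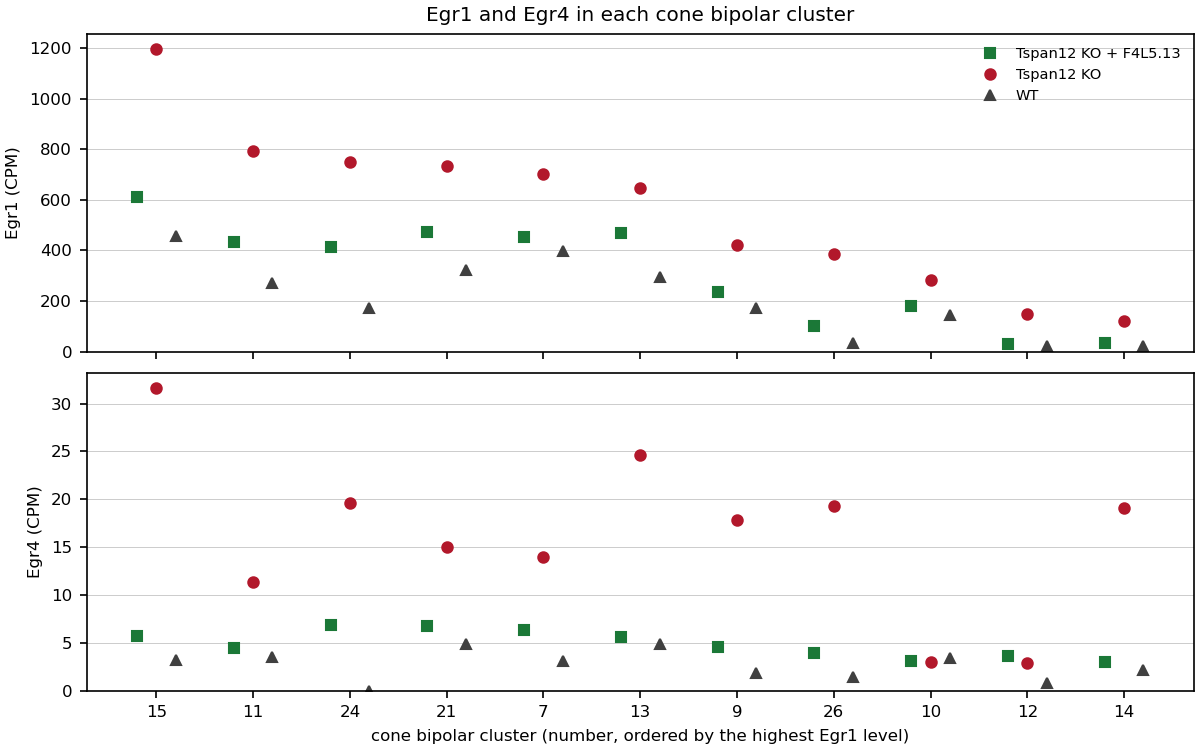
Egr1 (top) and Egr4 (bottom) level (CPM) in each of 11 cone bipolar clusters in the KO + F4L5.13 (squares), KO (circles) and WT (triangles) libraries; each point is the sum of 1 cluster in 1 library. The KO point of Egr1 is the highest in all 11 clusters, from 120 to 1199 CPM.

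The share of cells with a read moved the same way when every cell was thinned to 3000 reads. Egr1 was then found in 39.7% (KO + F4L5.13), 62.0% (KO) and 33.2% (WT) of cone bipolar cells, against 61.1%, 76.4% and 55.8% without thinning. Egr4 was found in 1.12%, 4.60% and 0.889% of thinned cone bipolar cells; in Müller cells, where its level was near 0, the thinned share was 0%, 0.220% and 0.0593%. Thinning left out 43, 64 and 1 shallower cone bipolar cells, and the unthinned median depths were 13709, 12937 and 11630 reads in cone bipolar and 22999, 27120 and 19395 in Müller cells. Of thinned cone bipolar cells, 47.9%, 28.1% and 54.1% had none of the 10 genes and 3.22%, 7.12% and 1.83% had at least 3; in Müller cells 49.0%, 54.1% and 36.6% had at least 3. Egr4 was found in 1.82% of KO + F4L5.13, 6.44% of KO and 1.19% of WT cone bipolar cells with Egr1, and in 0.653%, 1.60% and 0.739% of those without it.

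Free RNA of other classes could add to these levels, and its size was read from Glul, a Müller enzyme, and Gad1, an amacrine enzyme. Glul was at 99.9, 86.3 and 107 CPM in cone bipolar cells of the KO + F4L5.13, KO and WT libraries, lowest in the KO. At the Glul to Egr1 ratio of Müller cells this would bring 19.6, 16.1 and 15.4 CPM of Egr1, against 322, 592 and 231 CPM measured. Gad1 was at 1.06, 4.90 and 1.17 CPM, highest in the KO, where amacrine cells were most numerous. At the amacrine ratio this would bring 0.495 of the 15.8 CPM of Egr4 and 0.432 of the 7.07 CPM of Npas4 in the KO. For Egr2 the same Müller reckoning gives 1.23, 1.26 and 0.565 CPM against 1.23, 4.62 and 1.71 CPM measured, so its KO + F4L5.13 level was no higher than this background.

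In rod bipolar cells (713, 587 and 693 cells) Egr1 was called at a much lower level, 15.4 (KO + F4L5.13), 36.9 (KO) and 9.18 (WT) CPM. Its KO to WT ratio was 4.02 (2.55 to 6.54), where 1.2% of 8672 genes were called higher, and its KO + F4L5.13 to KO ratio was 0.416 (0.279 to 0.613), where 1.18% of 8715 genes were called lower. The Müller reckoning gives 14.6, 11.4 and 10.5 CPM of Egr1, about as much as was measured in the KO + F4L5.13 and WT libraries. The KO to WT call was lost after thinning, at 3.41. The KO + F4L5.13 to KO call was lost with candidate doublets kept, at 0.887, with the mean of single-cell CPM and after thinning. With doublets kept the KO + F4L5.13 to WT ratio was 3.41 and was called, against 1.67 without them. Nr4a1 was at 37.3, 42.6 and 37.4 CPM in rod bipolar cells, with overlapping intervals. Its KO to WT ratio was 1.14 (0.851 to 1.53).

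In amacrine cells none of the 8 genes compared between KO and WT was called in either direction (0.578% of 12620 genes called higher and 0.499% lower). Egr4 had a KO to WT ratio of 0.899 (0.642 to 1.29) and Npas4 of 0.698 (0.505 to 0.985). Clusters 31, 33 and 37 held 92, 80 and 37 KO amacrine cells, against 2, 1 and 0 WT cells. Without the 5 cells with most reads, the KO to WT ratio of Nr4a2 was 3.69 and was called, against 1.12 with them, and Arc was called lower in KO + F4L5.13 than in KO. Egr3 had a ratio of 3.50, but on so few WT reads that its interval ran from 0.764 to 53.8. Ier2 was at 127 (KO + F4L5.13), 73.2 (KO) and 139 (WT) CPM, a KO to WT ratio of 0.528 (0.425 to 0.661) and a KO + F4L5.13 to KO ratio of 1.74 (1.41 to 2.14). The KO + F4L5.13 and WT amacrine cells were few, and 5 cells held 36.9% of the KO + F4L5.13 and 57.0% of the WT Ier2 reads. Without the 5 cells with most reads in each library the KO to WT ratio of Ier2 was 1.02. Whether the ratio of KO to WT differs between amacrine and cone bipolar cells was not tested, there being 1 library a group.

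Cones, the daylight photoreceptors, had their highest Egr1 level in the treated library: 446 (KO + F4L5.13), 219 (KO) and 241 (WT) CPM in 570, 489 and 821 cells. The KO + F4L5.13 to KO ratio was 2.03 (1.82 to 2.28), called higher where 0.659% of 8199 genes were (1.86 and not called with candidate doublets kept), and the KO to WT ratio was 0.909 (0.810 to 1.02). Ier2 and Nr4a1 were also highest in the treated cones, at 80.1 and 42.9 CPM, but not past the rule. For Ier2 the Müller reckoning gives 37.3, 22.8 and 54.4 CPM, against 80.1 (KO + F4L5.13), 54.0 (KO) and 50.0 (WT) CPM measured. In horizontal cells Egr1 was lower in KO + F4L5.13 than in KO, at 0.303 (0.147 to 0.588), where 0.777% of 7462 genes were called lower, but 5 cells held 72.4% of the KO reads, and without the 5 cells with most reads the ratio was 0.698 and was not called.

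In rods, Egr1, Ier2 and Nr4a1 were higher in both knockout libraries, as were many other genes. Egr1 was at 134 (KO + F4L5.13), 80.4 (KO) and 23.8 (WT) CPM, Ier2 at 101, 90.8 and 24.6 CPM, and Nr4a1 at 14.8, 17.5 and 3.77 CPM. All 3 were called higher in both comparisons with WT, but so were 12% of 9910 genes in the KO and 10.1% of 9257 in KO + F4L5.13. Rods lay in different clusters: cluster 0 held 2930 KO + F4L5.13, 3349 KO and 53 WT rods, and cluster 19 held 91, 43 and 158. Within cluster 0 Egr1 was at 155, 82.6 and 71.2 CPM, and within cluster 19 at 38.1, 34.4 and 18.1 CPM. The median gene was itself higher than in WT by 0.44 (KO) and 0.41 (KO + F4L5.13) on the log2 scale. The 212 WT rods had a median of 14348 reads per cell against 3034 and 3102 in the 3500 KO + F4L5.13 and 3784 KO rods. In WT rods the Glul reckoning gives 19.9 CPM of Egr1, 35.2 of Ier2 and 1.85 of Nr4a1, against 23.8, 24.6 and 3.77 CPM measured. With cells assigned by their own markers the KO to WT ratio of Egr1 was 0.953. All 3 calls between KO and WT rods were lost under that assignment and after thinning.

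**Figure D5:**
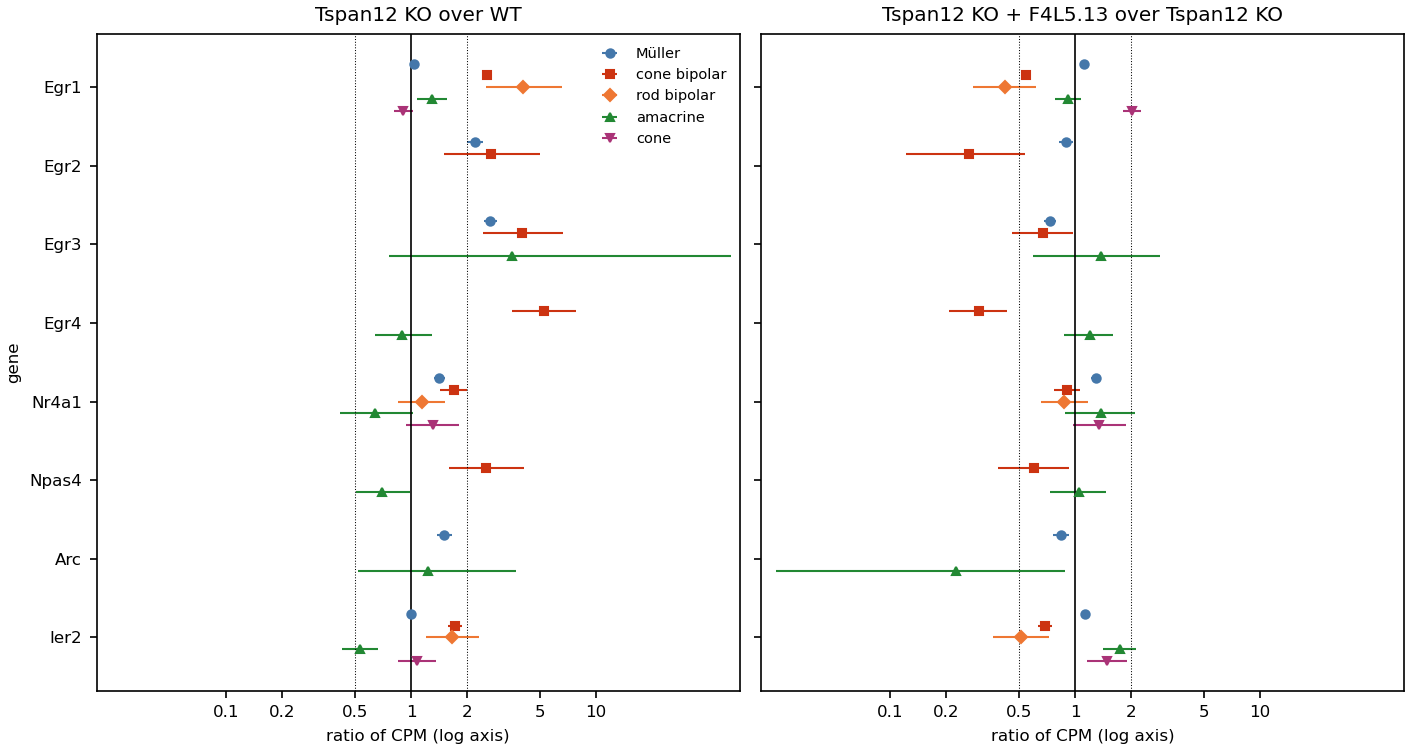
Ratio of CPM (log axis) for 8 of the genes in 5 cell classes, KO over WT (left) and KO + F4L5.13 over KO (right); bars are exact 95% counting intervals, and genes with under 30 molecule equivalents are not drawn. Dotted lines mark ratios of 2 and 0.5. In cone bipolar cells 5 genes lie beyond 2 on the left, and Egr2 and Egr4 lie below 0.5 on the right.

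Other genes of the same response were read from lists chosen with earlier results of these data known. Of 38 other rapid primary-response genes, 35 could be compared between KO and WT Müller cells, and 11 were called higher and none lower, against 2.81% and 2.09% of all genes; the median was 0.20 on the log2 scale, against 0.00 over all genes. Fosl1, an AP-1 subunit, had the largest ratio, 6.06 (2.35 to 19.8), but only at 2.22 CPM in KO against 0.366 CPM in WT. The stress-induced factor Atf3 followed at 537 CPM in KO and 113 CPM in WT, a ratio of 4.77 (4.52 to 5.04), then the pseudokinase Trib1 at 3.90 (3.60 to 4.23) and the nuclear factor Csrnp1 at 3.45 (2.84 to 4.20). In KO + F4L5.13 against KO, 3 of 35 were called higher and 2 lower, against 1.42% and 1.76% of all genes. Klf2, a factor that blood flow induces in endothelium, was called higher at 2.61 (2.38 to 2.86) and Ccn1 at 2.03 (1.98 to 2.09). Trib1 was called lower at 0.447 (0.416 to 0.481) and Atf3 at 0.486. In KO + F4L5.13 against WT, 6 of 33 were called higher, led by Csrnp1 at 3.17 (2.59 to 3.91), and none lower, against 0.752% and 0.292% of all genes.

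In cone bipolar cells 27 genes of that list could be compared between KO and WT, 3 were called higher and 1 lower (1.77% and 0.901% of all genes), and the median was 0.50 on the log2 scale against 0.01 over all genes. Gadd45b, a stress-response gene that neuronal activity induces, was called higher at 3.68 (2.84 to 4.81), Atf3 at 2.88 (1.92 to 4.38) and Junb at 2.10 (1.98 to 2.24), while the phosphatase Dusp6 was lower at 0.432 (0.292 to 0.625). In KO + F4L5.13 against KO, 1 of 25 was called higher, Dusp6, and 1 lower, Gadd45b at 0.358 (0.275 to 0.461), against 1.08% and 1.94% of all genes, with a median of -0.29 against -0.01 over all genes.

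Of 17 delayed and neuronal activity-response genes, 11 could be compared between KO and WT in cone bipolar cells, where 2 were called higher and 1 lower, against 1.77% and 0.901% of all genes. The neuropeptide precursor Vgf was at 3.69 (2.33 to 6.02) times WT, Tiparp at 2.41 (1.89 to 3.08) and the growth-arrest gene Gadd45a at 0.330 (0.248 to 0.434). In Müller cells 1 was called higher and 1 lower of 11, against 2.81% and 2.09% of all genes. Rgs2, a regulator of G-protein signalling, was higher, at 184 (KO + F4L5.13), 517 (KO) and 218 (WT) CPM, and Cartpt lower, at 0.225. In KO + F4L5.13 against KO, Vgf was called higher at 17.5 and Rgs2 lower at 0.357, of 12 (1.42% and 1.76% of all genes). Against WT, 2 of 12 were called higher, led by Vgf at 13.7, and 1 lower, Cartpt at 0.12 (0.752% and 0.292%). Cartpt also led amacrine cluster 34, and the part of carried-over neuronal RNA in the Müller ratios of Vgf and Cartpt was not tested.

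Of 26 upstream factors and partners, which include SRF, CREB and their coactivators, 23 could be compared between KO and WT in cone bipolar cells. Of these, 1 was called higher, Nab2, and none lower, against 1.77% and 0.901% of all genes. Nab2 is an Egr-bound corepressor that the Egr proteins themselves induce. It was at 7.39 (KO + F4L5.13), 14.9 (KO) and 3.16 (WT) CPM, a KO to WT ratio of 4.72 (3.22 to 7.08). Nab2 was also called higher in the KO than in WT in amacrine cells, at 3.56 (1.78 to 8.35), and in cones, at 4.08 (2.47 to 6.86), classes where none of the 10 genes was called between KO and WT. Of all genes, 0.578% in amacrine cells and 0.74% in cones were called higher. None of the 26 was called between KO and WT in Müller cells, where 2.81% of all genes were called higher and 2.09% lower. In KO + F4L5.13 against KO Müller cells Crtc2 was called higher at 2.87 (1.42% of all genes). Nab2 was called higher in KO + F4L5.13 than in WT Müller cells, at 2.01, and cone bipolar cells, at 2.34 (0.752% and 0.207%). It was called lower in KO + F4L5.13 than in KO amacrine cells, at 0.239, and over all bipolar cells, at 0.476 (0.689% and 2.07%). Of 10 heat-shock genes, taken as a sign of dissociation stress, 1 was called higher in KO than in WT Müller cells, Hspb1 at 3.32 (2.51 to 4.45). In cone bipolar cells 1 of 8 was called higher, Hsph1 at 2.03 (1.79 to 2.30). The shares of all genes called higher were 2.81% and 1.77%. Their median was 0.04 on the log2 scale in Müller and 0.03 in cone bipolar cells, against 0.00 and 0.01 over all genes. In KO + F4L5.13 against KO Müller cells 1 of the 10 had a ratio above 1 and 9 below, with a median of -0.22 against -0.002 over all genes. None was called, where 1.42% of all genes were called higher and 1.76% lower. Hspb1 was also called higher in KO than in WT amacrine cells, at 5.9, where 0.578% of all genes were. In KO + F4L5.13 against WT Müller cells it was called higher at 2.34, where 0.752% of all genes were. The part of dissociation in the members' ratios was not tested.

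Across 25 columns of class by library with at least 50 cells, the genes whose log2(CPM + 1) was most like that of Egr1 among 11914 candidates were Fos (Pearson r = 0.960), Fosb (0.950), Jun (0.892), Junb (0.889) and Dnajc1 (0.854). For Ier2 they were Jun (0.978), Junb (0.969), Flna (0.958), Micu2 (0.933) and Sparc (0.930). For Nr4a1 they were Vangl2 (0.897), Rbms2 (0.872), Plekhg2 (0.863), Bcl9l (0.849) and Btg2 (0.845). Among the members, Egr1 had r = 0.872 with Ier2, 0.863 with Egr3 and 0.739 with Nr4a1, but 0.130 with Egr4 and -0.186 with Npas4. The columns of a class share its cell type and those of a library share its preparation, so these are descriptions.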

How the data were processed

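Per the labels, the libraries were made with the 10x Chromium 3′ v3 kit, and the submitters' processing notes name mm10 and Partek 9.0. The deposited tables hold estimated counts per gene and barcode; 2.33% to 2.39% of nonzero values were not whole (by more than 0.001), and all were rounded, which set 3.33% to 3.39% of them to 0. No label or header says whether the authors collapsed reads. The low values repeat too often for molecules, so intervals rest on molecule equivalents (reads over the ratio of squared to plain sums, values up to 10).

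Barcodes with at least 500 genes and at most 20% mitochondrial reads were kept, and 4.87% to 8.61% were left out as candidate doublets ranked against simulated ones. Clustering used 2000 variable genes, 40 components, 15 neighbours and Leiden (leidenalg 0.10.2) at resolution 1.0, with no batch correction. Classes needed at least 3 markers. Unnamed clusters held 286, 456 and 5 cells (KO + F4L5.13, KO, WT) and were not used. All analysis ran in Python 3.11.15 with scipy 1.17.1. The members and lists were chosen with earlier results of these data known. All 10 genes are named; of a list at most 4 called genes a comparison are named, by size of ratio, and the 5 most alike genes. The size rule was tested on simulated counts that had no variation between cells, animals or dissociations, so that test covers counting error only.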

Additional observations from a re-analysis of the deposited data

Results flagged for a closer look

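Egr1 in KO + F4L5.13 against KO stood out because it was called in opposite directions in different classes. It was higher in cones, with a ratio of 2.03, and lower in rod bipolar cells, with a ratio of 0.416. It was also lower in horizontal cells, with a ratio of 0.303. With 1 library per group the difference between these classes was not tested. With candidate doublets kept, the ratio was 1.86 in cones and 0.887 in rod bipolar cells, and neither was called. The call in rod bipolar cells was also lost with the mean of single-cell CPM and after thinning. The call in horizontal cells was lost with doublets kept, without the 5 cells with most reads, with cells assigned by own markers and after thinning.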

How the results depend on the processing

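No paired analysis was possible because each group is 1 library, and for the same reason no replicate could be left out. Of 1304 alternative values of 116 ratios, 1195 kept both direction and call. A call was lost in 59 and gained in 11. The ratio crossed 1 in 41, among 26 ratios, and 39 of these belonged to ratios that were not called. The 2 that belonged to called ratios were in rods with cells assigned by their own markers: Egr1 in KO against WT at 0.953 and Nr4a1 in KO + F4L5.13 against WT at 0.988.

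In Müller cells, the 2 genes called higher in KO against WT became 1 (Egr3) in the most evenly shared cluster alone. The 0 called lower in KO + F4L5.13 against KO became 1 with candidate doublets kept (Egr4), with cells assigned by own markers (Nr4a3) and with no minimum of molecule equivalents (Egr4). The 0 called higher in KO + F4L5.13 against WT became 1 (Egr2) with at least 1000 genes and at most 10% mitochondrial reads, without the 5 cells with most reads, without clusters holding another class's markers, and with cells assigned by own markers.

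In bipolar cells, the 4 called higher in KO against WT became 1 (Egr1) after thinning to 3000 reads per cell. They became 3, without Npas4, with median-of-ratios size factors, the stricter cell filter, own markers and equal cluster weights. The 2 called lower in KO + F4L5.13 against KO became 1 (Egr4) with candidate doublets kept, without the 5 cells with most reads, with cells assigned by own markers and with clusters weighted equally, and 0 after thinning. With the mean of single-cell CPM the count stayed at 2, but Egr3 took the place of Egr2. The 1 called higher in KO + F4L5.13 against WT became 0 with candidate doublets kept, with the mean of single-cell CPM, with own markers, after thinning and with clusters weighted equally. Thinning leaves fewer reads to pass the minimum; the cause of the other changes was not tested. Equal cluster weights and the single Müller cluster were chosen after seeing the data. Own-marker assignment could not be made for the split of rod and cone bipolar cells.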
